A study of Homo sapiens with 16 samples.

Results

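Metallothioneins, small cysteine-rich proteins that bind zinc and copper, were followed together with their transcription factor MTF1 in HEK293 cells (an established line from human embryonic kidney) treated with a mineralocorticoid, a phorbol ester or both. The members were every probe set annotated to 8 symbols: MT1E, MT1F, MT1G, MT1H, MT1M, MT1X, MT2A and MTF1. That gave 8 of the 18132 genes that the array's annotation names singly and 18 of 49293 probe sets, 13 for metallothioneins and 5 for MTF1. All 4 groups were HEK293 cells transfected for 24 h with 500 ng per well of a plasmid that expresses MR, the mineralocorticoid receptor encoded by NR3C2, and none lacked the receptor plasmid. For the last 4 h the cells received vehicle (listed as no treatment among the sample characteristics), 10 nM PMA, 100 nM DOC or 100 nM DOC plus 10 nM PMA. DOC is deoxycorticosterone acetate, a steroid that activates the receptor, and PMA is a tumour-promoting phorbol ester that switches on protein kinase C. Each group held 4 arrays, numbered as biological replicates, 16 in all, and the series title places the question in the receptor's effect on inflammatory AP-1 signalling.

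Metallothioneins buffer zinc and copper and scavenge reactive oxygen. When free zinc or cadmium rises, MTF1, a zinc-finger protein, binds metal response elements in metallothionein promoters and raises their transcription. Glucocorticoids, interferons and cell stress are also known to raise metallothionein mRNA, and MT2A is usually the most abundant form in human cells. The 7 metallothionein members lie in 1 cluster on chromosome 16, where RefSeq names 16 metallothionein genes and pseudogenes. MT2A is the third of them and MT1E the fifth, with MT1M next to MT1E, and MT1F, MT1G and MT1H are adjacent, 1 pseudogene before MT1X at the end of the cluster. MTF1 lies on chromosome 1.

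Promoter sequences bear on the comparison because the agents used act on different classes of element. RefSeq (GRCh38.p14) entries matched 4 of the 8 members, MT1H, MT1X, MT2A and MTF1. No entry in the promoter set used here matched MT1E, MT1F, MT1G or MT1M, so their promoters were not searched. The 250 bases before the start are shown 5′ to 3′ for MT2A and MT1X, the metallothioneins on which the results with DOC plus PMA turn, and for MTF1. Capitals mark the core of the metal response element, TGCACNC or TGCGCNC on either strand, and the AP-1 site, TGAGTCA or TGACTCA. MT2A occupies chr16:56608334-56608583 on the plus strand, MT1X chr16:56682220-56682469 on the plus strand, and MTF1 chr1:37859593-37859842 on the minus strand.
MT2A promoter: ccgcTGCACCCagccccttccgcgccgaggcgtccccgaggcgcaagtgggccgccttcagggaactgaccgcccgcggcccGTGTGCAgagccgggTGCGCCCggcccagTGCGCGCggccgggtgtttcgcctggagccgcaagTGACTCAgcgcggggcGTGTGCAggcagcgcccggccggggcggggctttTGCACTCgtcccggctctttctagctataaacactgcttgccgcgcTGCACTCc
MT1X promoter: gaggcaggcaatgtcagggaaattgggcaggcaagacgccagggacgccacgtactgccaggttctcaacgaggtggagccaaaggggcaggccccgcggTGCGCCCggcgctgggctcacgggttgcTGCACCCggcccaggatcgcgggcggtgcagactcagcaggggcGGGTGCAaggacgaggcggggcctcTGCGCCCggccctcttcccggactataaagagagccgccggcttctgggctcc
MTF1 promoter: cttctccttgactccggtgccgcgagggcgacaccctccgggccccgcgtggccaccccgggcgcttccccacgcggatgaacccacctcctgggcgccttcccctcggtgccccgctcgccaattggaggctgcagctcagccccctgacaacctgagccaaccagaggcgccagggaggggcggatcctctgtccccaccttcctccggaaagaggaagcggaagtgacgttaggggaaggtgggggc
The MT2A window held 7 copies of the metal response core, the MT1H window 8, the MT1X window 4 and the MTF1 window 0. Of 35116 promoter windows of the same length in the RefSeq table, 24.8% held at least 1 such core, and 73 windows (0.208%) held 4 or more. The AP-1 site appeared in the MT2A window alone among these 4, as 1 copy that ended 98 bases before the start, and in 4.20% of all windows. The steroid receptor monomer motif AGAACA was found in none of the 4 member windows and in 12.4% of all windows. The palindromic steroid receptor element, searched as an exact match, was found in none of the 4 and in 1 of the 35116. An exact match is so rare that its absence cannot show that these 4 promoters lack such an element. Inexact copies of it, and sites farther from the start than the 250 bases, were not searched. A match describes these letters in this window and was not tested as a binding site.

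Signal was a log2 value of summarised probe brightness, scaled so that the array medians lay between 4.91 and 4.96. A probe set was tested where it reached the array's 40th percentile (4.05 to 4.12) in at least 4 of the 16 arrays, which held for 30613 of 49293. Among the members 14 of 18 passed, 9 for MT1E, MT1F, MT1G, MT1X and MT2A and all 5 for MTF1. MT1H and MT1M had no probe set that passed. The single MT1H probe set averaged 2.50, the MT1M probe sets 2.05 and 3.34, and 1 of the 3 MT1G probe sets 2.02, with 0 arrays at the 40th percentile in any of them. A further probe set assigned jointly to MT1JP, MT1M and MT1P3 was also dim, with group means of 3.40 to 3.66, and was not counted. A filter of this kind passes a probe set that is bright in 1 group, so counts over the 14 are not counts over all members.

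Metallothionein mRNAs are near-identical, and the probe set names carry a mark of this. Names ending in _x_at contain probes that also match other transcripts, those ending in _s_at match transcripts of several genes, and those ending in _a_at match several transcripts of 1 gene. Of the 13 metallothionein probe sets, 10 end in _x_at or _s_at, and 7 of the 9 that passed. The MT1G probe set 11717385_a_at and the MT1X probe set 11726385_a_at are the exceptions among the 9. Signal of MT1E, MT1F and MT2A, and of the brighter MT1X probe set 11757581_x_at, may therefore include other family members. Levels are compared within a probe set only.

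The cell line markers NEFL, NEFM, VIM, KRT8 and KRT18 lay above every array's median in all 16 arrays, while PAX2, a renal developmental factor, did not (4.37 to 5.23). Of the leukocyte markers, PTPRC stayed between 1.95 and 2.45 and LAPTM5 between 2.90 and 3.20. CD68 (4.12 to 4.99) and CORO1A (4.08 to 5.14) were brighter and passed the filter. Of the endothelial markers, EGFL7 lay above every array's median (5.41 to 5.81), while PECAM1, TIE1, CDH5 and ESAM did not. Levels of these markers alone therefore do not settle which cells were present. Signal of NR3C2, which the probe set cannot assign to plasmid or chromosome, averaged 7.43 with vehicle, 7.21 with PMA, 7.38 with DOC and 7.02 with both. In such bulk RNA, fewer expressing cells and less RNA per cell cannot be told apart. PMA moved a large part of the transcriptome, with 40.9% of the tested probe sets past an adjusted p of 0.05 (limma, Benjamini-Hochberg over all 30613), while DOC alone moved 0.0719%. Of the PMA calls 40.2% were higher, a share that rose to 55.2% when the arrays were set to a common median.

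MT2A was highest in cells given both agents, and its values in the other groups overlapped. Its brighter probe set, 11753900_x_at, read 11.31, 10.76, 10.77 and 10.74 in the vehicle arrays 1 to 4. With PMA it read 11.22, 11.04, 10.78 and 10.77, and with DOC 11.48, 10.94, 10.94 and 10.92. With DOC plus PMA it read 11.94, 11.66, 11.54 and 11.59. All 4 arrays with both agents lay above all 12 others, and the other 3 groups overlapped. Replicate 1 was the highest array in every group.

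With both agents MT2A rose over vehicle by 0.78 ± 0.15 (the error after a difference is the standard error from limma), which is 1.72-fold, with an adjusted p of 0.000547. Over DOC alone it rose by 0.61 ± 0.15, or 1.53-fold, with an adjusted p of 0.00409. Over PMA alone the difference was 0.73 ± 0.15, or 1.66-fold, and missed the threshold at an adjusted p of 0.0654. The replicate numbers were taken to pair the PMA arrays with the DOC plus PMA arrays. This was judged from the data alone, and the labels do not say what the numbers share. With the number as a block in these 2 groups only, the difference from PMA passed at an adjusted p of 0.00443. With a block over all 4 groups, which goes beyond this pairing, it passed at 0.000121. It passed too when any 1 of 3 arrays was left out, vehicle replicate 1 (0.0224), PMA replicate 1 (0.0480) or DOC replicate 1 (0.0203). In the other 13 of the 16 fits that left out 1 array it did not pass, with adjusted p up to 0.287. Without all 4 arrays numbered 1 it passed (0.73 ± 0.08, adjusted p = 0.00130). Neither agent alone changed it past the threshold: the difference was 0.05 (95% interval −0.26 to 0.37) for PMA and 0.17 (−0.15 to 0.49) for DOC.

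The second MT2A probe set, 11758729_x_at, is dimmer and less uniform. It read 6.53, 6.03, 6.11 and 6.10 with vehicle, 6.10, 6.30, 6.08 and 6.04 with PMA, 6.12, 6.16, 6.16 and 6.13 with DOC, and 6.23, 6.33, 6.47 and 6.80 with both. The 4 arrays with both agents lay above the 4 DOC arrays but overlapped the vehicle and PMA arrays. The rise over DOC of 0.31 ± 0.12 passed narrowly (adjusted p = 0.0468). It did not pass with the replicate block (0.0705), nor without any 1 of vehicle replicates 3 or 4, PMA replicates 1, 3 or 4, any DOC array, or DOC plus PMA replicates 3 or 4 (0.0530 to 0.183). Its difference from PMA was 0.33 ± 0.12 (adjusted p = 1.00), in the same direction as that of the brighter probe set. Across the 16 arrays the 2 probe sets correlated at r = 0.61 in level, a description that mostly carries the group difference.

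MT1X fell with PMA alone, and its values with DOC plus PMA overlapped those of vehicle. Its brighter probe set, 11757581_x_at, read 8.50, 8.53, 8.39 and 8.34 with vehicle and 7.95, 8.06, 8.01 and 7.92 with PMA. With DOC it read 8.63, 8.62, 8.45 and 8.41, and with DOC plus PMA 8.61, 8.42, 8.54 and 8.57. The 4 PMA arrays lay below the other 12, and the other 3 groups overlapped. The fall with PMA was by 0.46 ± 0.07 (1.37-fold lower, adjusted p = 8.50e-05). DOC plus PMA exceeded PMA by 0.55 ± 0.07 (1.47-fold, adjusted p = 0.000837). This was the one call among the 14 member probe sets in that comparison, in which 0.229% of all tested probe sets passed. DOC plus PMA differed from vehicle by 0.09 (95% interval −0.06 to 0.25) and from DOC by 0.01 (−0.15 to 0.16), so any remaining PMA effect beside DOC is bounded by these intervals and not shown to be absent. DOC alone differed from vehicle by 0.09 (−0.07 to 0.24).

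The other MT1X probe set, 11726385_a_at, whose name marks it as specific to the gene, showed the same order of groups. It read 7.48, 7.58, 7.39 and 7.11 with vehicle, 7.06, 6.97, 6.98 and 7.10 with PMA, 7.40, 7.60, 7.75 and 7.29 with DOC, and 7.83, 7.54, 7.53 and 7.44 with both. Every PMA array lay below every array of the other groups, although vehicle replicate 4 (7.11) lay next to the highest PMA array (7.10). It fell with PMA by 0.36 ± 0.11 (adjusted p = 0.0170). That call did not hold without vehicle replicate 2 (0.0629), without all arrays numbered 1 (0.0546), after cyclic loess scaling (0.0524) or with a common median (0.0547). Its difference of DOC plus PMA from PMA, 0.56 ± 0.11, was as large as that of the brighter probe set and missed the threshold (adjusted p = 0.0574). It passed without vehicle replicate 4 (0.0310), DOC replicate 3 (0.0417) or DOC replicate 4 (0.0485). In the other 13 of the 16 fits that left out 1 array it did not pass, with adjusted p up to 0.251.

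MT1F fell with PMA, and in its probe set 11721877_s_at it fell beside DOC as well. This probe set read 5.86, 6.17, 5.87 and 6.00 with vehicle and 5.46, 5.78, 5.45 and 5.39 with PMA. With DOC it read 6.21, 6.08, 5.98 and 5.85, and with both 5.50, 5.77, 5.52 and 5.61. All 8 arrays with PMA lay below all 8 without it. It fell by 0.46 ± 0.10 with PMA (adjusted p = 0.00177), by 0.38 ± 0.10 with both against vehicle (0.00785) and by 0.43 ± 0.10 with both against DOC (0.00302). Adding DOC to PMA moved it by 0.08 (95% interval −0.14 to 0.30). The other MT1F probe set, 11721878_x_at, fell with PMA by 0.35 ± 0.09 (adjusted p = 0.00357) and with both against vehicle by 0.25 ± 0.09 (0.0294). Its difference of both against DOC, −0.19 ± 0.09, did not pass (0.0937). The call for both against vehicle was lost without vehicle replicate 2 or 3 or DOC plus PMA replicate 1 or 4 (0.0614 to 0.112) and under cyclic loess, common median and common upper mean scaling (0.0508 to 0.105).

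MT1G and MT1E did not pass in any of these comparisons. The MT1G probe set 11717385_a_at read 5.36, 5.37, 5.67 and 5.42 with vehicle, 5.46, 5.94, 5.60 and 5.60 with PMA, 5.93, 5.78, 5.60 and 5.55 with DOC, and 5.75, 5.79, 5.80 and 5.59 with both. The vehicle mean was the lowest, and all groups overlapped. Its differences from vehicle were 0.20 ± 0.11 with PMA, 0.26 ± 0.11 with DOC and 0.28 ± 0.11 with both (adjusted p = 0.159, 1.00 and 0.0517). The second passing MT1G probe set, 11717387_x_at, differed from vehicle by 0.12 with PMA, 0.09 with DOC and 0.01 with both. With both agents it differed from PMA by −0.11 and from DOC by −0.08, and here too no pair of neighbouring groups was apart. MT1E, measured by 11716413_x_at just above the brightness filter, had group means of 4.28 ± 0.05 (SD, n = 4) with vehicle, 4.31 ± 0.12 with PMA, 4.22 ± 0.15 with DOC and 4.42 ± 0.13 with both. Its difference of both agents against DOC, 0.20 ± 0.09, had an adjusted p of 0.0748, and 0.0355 with the replicate block.

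**Figure D1:**
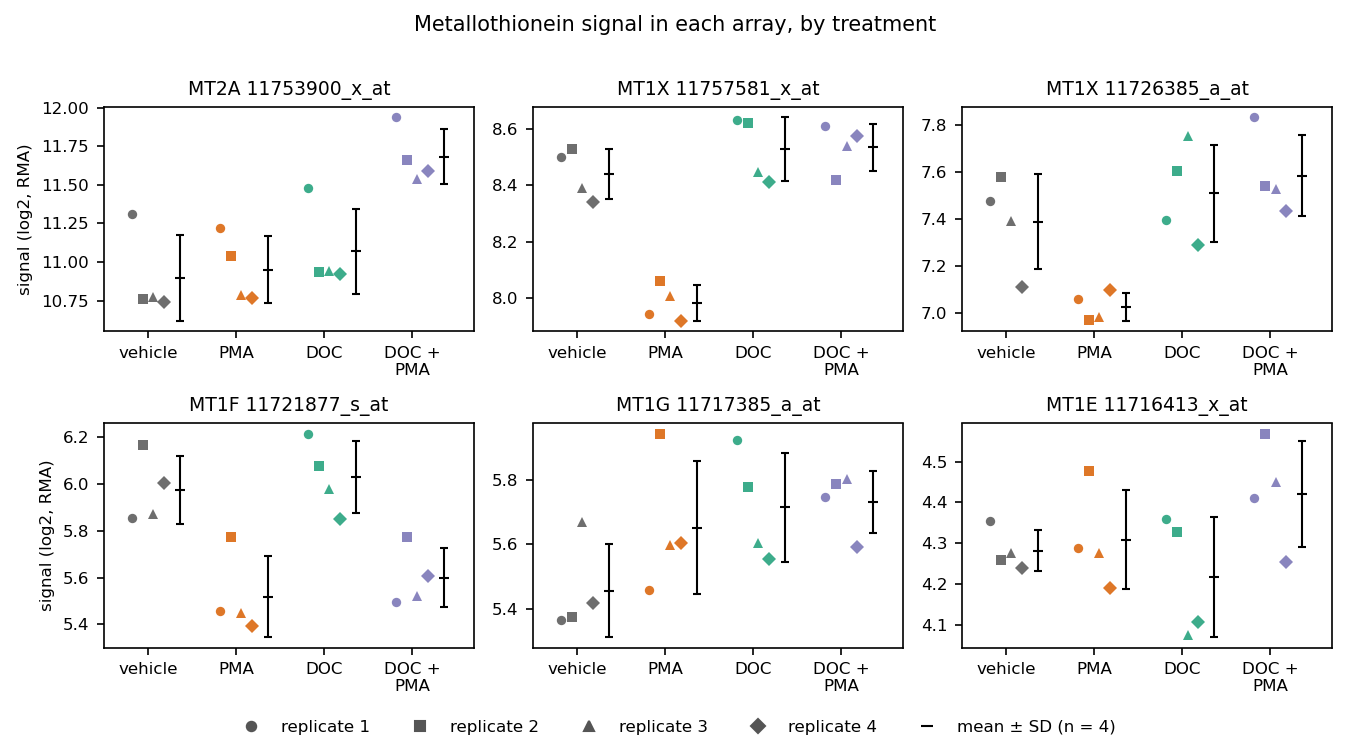
Log2 RMA signal of 6 metallothionein probe sets (vertical axes, each with its own range) in the 4 treatment groups; each point is 1 array, its shape gives the replicate number, and the black bar is the mean ± SD of 4 arrays. MT2A lies highest with DOC plus PMA (11.54 to 11.94), both MT1X probe sets lie lowest with PMA alone, and MT1F is low in both groups with PMA.

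MTF1, the metal-sensing activator of the family, did not pass with PMA in its brightest probe set but rose in the other 4 of its 5. The clearest, 11751285_a_at, read 6.51, 6.38, 6.67 and 6.52 with vehicle, 7.21, 7.35, 7.13 and 7.06 with PMA, 6.76, 6.44, 6.62 and 6.61 with DOC, and 7.03, 7.00, 6.97 and 7.15 with both. All 8 arrays with PMA lay above all 8 without it. It rose with PMA by 0.67 ± 0.08 (1.59-fold, adjusted p = 7.66e-06) and with both agents over DOC by 0.43 ± 0.08 (0.000636). The probe sets 11722390_a_at and 11722391_at rose with PMA by 0.64 ± 0.09 and 0.56 ± 0.12, without overlap of the 2 groups. The probe set 11722388_at rose by 0.30 ± 0.11 with overlapping groups (adjusted p = 0.0457, and 0.0543 with the replicate block). That call was lost without any 1 of the vehicle arrays, PMA replicates 2 or 4, DOC replicates 3 or 4, or DOC plus PMA replicates 1 or 4 (0.0515 to 0.150).

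The brightest MTF1 probe set, 11722389_at, did not follow the others. It read 7.17, 6.98, 7.23 and 7.35 with vehicle, 7.18, 7.10, 7.19 and 7.30 with PMA, 7.19, 7.11, 7.07 and 7.38 with DOC, and 7.29, 7.35, 7.24 and 7.29 with both. All 4 groups overlapped, and PMA differed from vehicle by 0.01 (95% interval −0.17 to 0.19), an interval that ends below the rise of 11751285_a_at. The transcript regions that the MTF1 probe sets cover were not analysed here. DOC did not move MTF1 past the threshold, with or without PMA. In the 4 probe sets that rose with PMA, DOC plus PMA differed from PMA by −0.18 to −0.04, and 0 of the 5 passed.

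**Figure D2:**
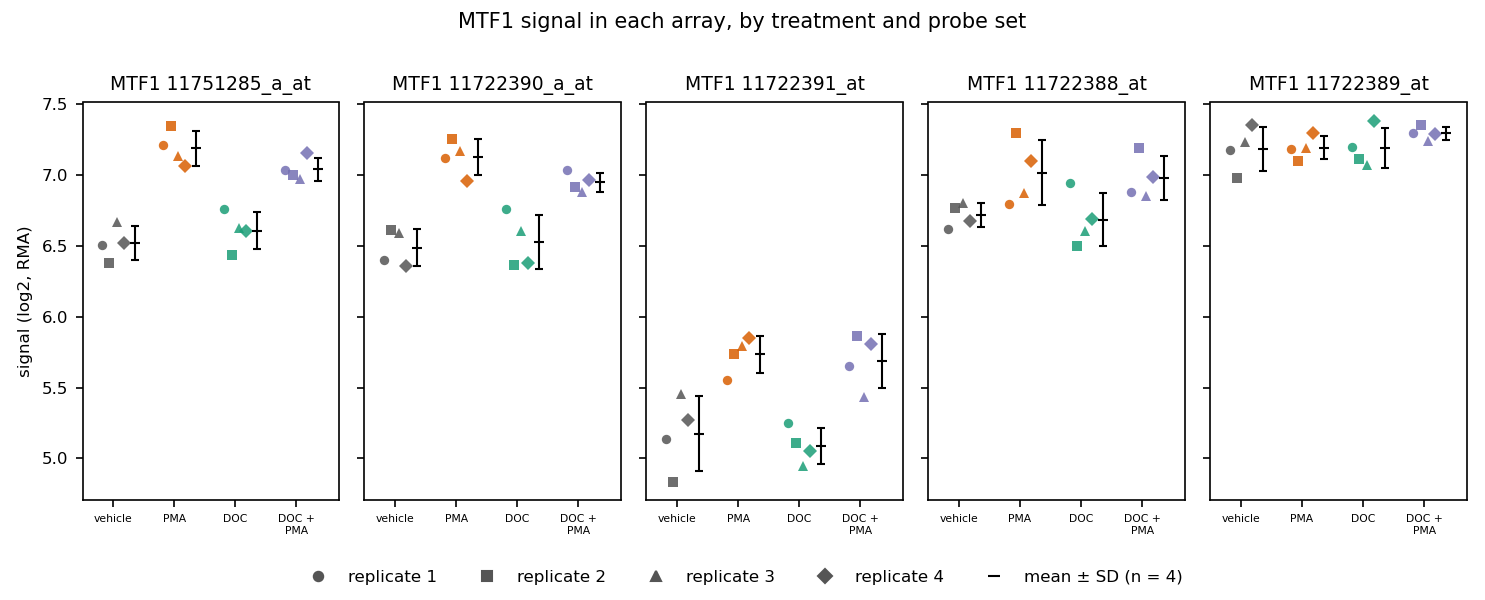
Log2 RMA signal of the 5 MTF1 probe sets (shared vertical axis) in the 4 treatment groups; points are arrays, shapes are replicate numbers and black bars are the mean ± SD of 4 arrays. In the 3 panels on the left the PMA arrays lie above the vehicle arrays, while 11722389_at is at about the same level in all groups.

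Counted over the 14 tested probe sets, PMA against vehicle gave 4 calls higher, all MTF1, and 4 lower, the MT1F and MT1X pairs. Over all tested probe sets 16.5% were called higher and 24.5% lower in that comparison, so a count of this size by itself does not set the members apart. The median difference was −0.06 over the 9 metallothionein probe sets and −0.04 over all tested probe sets. DOC plus PMA against vehicle gave 4 higher (MT2A and 3 MTF1 probe sets) and 2 lower (MT1F), beside 15.9% higher and 22% lower overall. The split was 7 higher and 1 lower after cyclic loess scaling or with a common median, and 7 higher and 2 lower with array weights. DOC plus PMA against DOC gave 5 higher (both MT2A probe sets and 3 of MTF1) and 1 lower (MT1F), beside 15.6% and 21% overall. Averaged over arrays with and without DOC, PMA gave 5 calls higher (MT2A 11753900_x_at by 0.33 ± 0.11, adjusted p = 0.0148, and 4 MTF1 probe sets) and 3 lower (both of MT1F and MT1X 11757581_x_at), beside 21.8% and 30.7% overall. For MT2A and MT1X this average joins estimates of unlike size. PMA moved MT2A 11753900_x_at by 0.05 without DOC and by 0.61 beside it. For MT1X 11757581_x_at the values were −0.46 and 0.01. The interaction, which tests such a difference, passed for neither probe set. These comparisons share arrays and are not independent of one another.

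DOC against vehicle gave 0 calls among the 14, with limma, and 1 probe set at an unadjusted p under 0.05, MT1G 11717385_a_at. Overall 22 of 30613 probe sets passed there. The steroid did act in these cells: PDK4, a kinase of glucose oxidation, rose by 1.92 ± 0.15 with DOC, and the kinase SGK1 by 0.93 ± 0.08. The interval of the DOC difference reached 0.49 for the bright MT2A probe set and 0.24 for the bright MT1X probe set. A rise of the size seen for SGK1 is outside both intervals.

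**Figure D3:**
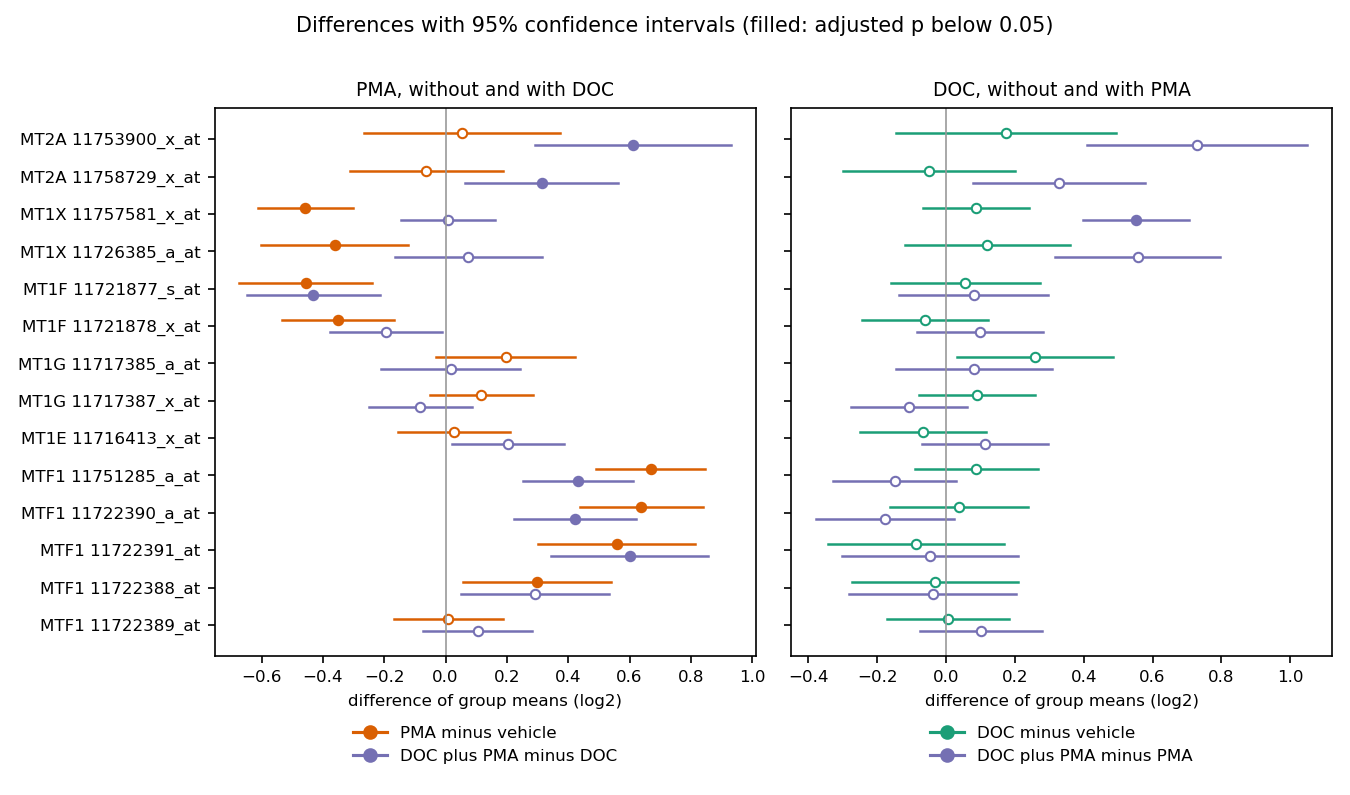
Differences of group means (log2) for the 14 tested member probe sets with 95% confidence intervals; the left panel shows PMA without and with DOC, the right panel DOC without and with PMA, and filled points passed an adjusted p of 0.05. In the right panel MT2A 11753900_x_at (0.17 without PMA, 0.73 with it) and MT1X 11757581_x_at (0.09 and 0.55) have higher values with PMA than without, while the MTF1 points lie near 0.

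Whether DOC acted differently with and without PMA was tested as an interaction, and 0 of the 14 members passed, with limma, beside 0.0294% of all tested probe sets. At an unadjusted p under 0.05 there were 4, the 2 probe sets each of MT1X and MT2A. The DOC effect was larger with PMA by 0.46 ± 0.10 for MT1X 11757581_x_at (95% interval 0.25 to 0.68, adjusted p = 0.428) and by 0.44 ± 0.16 for MT1X 11726385_a_at. It was larger by 0.56 ± 0.21 for MT2A 11753900_x_at (adjusted p = 1.00, and 0.112 with the replicate block) and by 0.38 ± 0.17 for MT2A 11758729_x_at. A difference in DOC effect is thus not called for any member. Averaged over arrays with and without PMA, DOC raised MT1X 11757581_x_at by 0.32 ± 0.05 (adjusted p = 0.00734), the 1 member call beside 0.268% overall. That call was lost without all 4 arrays numbered 1 (0.146). The same average for MT2A 11753900_x_at was 0.45 ± 0.11, with an adjusted p of 0.147, which became 0.000438 with the replicate block and 0.0319 without vehicle replicate 1.

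The rise of MT2A with both agents stood beside a spread within groups in which the arrays numbered 1 were the highest. The 5 genes whose deviations from the group means were most like those of MT2A 11753900_x_at, picked by this likeness from all tested genes, were IRF7, the transcription factor of the interferon response, TAP1 and TAP2, which carry peptides for antigen presentation, MX1, an antiviral GTPase, and OGFR, the opioid growth factor receptor. Each of them, like MT2A, was highest in replicate 1 of all 4 groups. The deviation of replicate 1 averaged 0.34 for MT2A, 0.45 for IRF7, 0.55 for TAP1 and 0.95 for MX1. Over the 12 arrays with other numbers the correlation with MT2A was r = 0.81 for IRF7, 0.73 for TAP1, 0.74 for MX1, 0.87 for OGFR and 0.70 for TAP2. The deviations were taken from group means that include the arrays numbered 1, so these correlations still carry those arrays. The 12 arrays also took part in the choice of the genes, so the values describe the choice and no gene group was tested. The arrays numbered 1 stand apart, so no value over all 16 is given. The part of this spread in the MT2A result was not tested, and without the arrays numbered 1 the MT2A difference was as large, as given above.

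**Figure D4:**
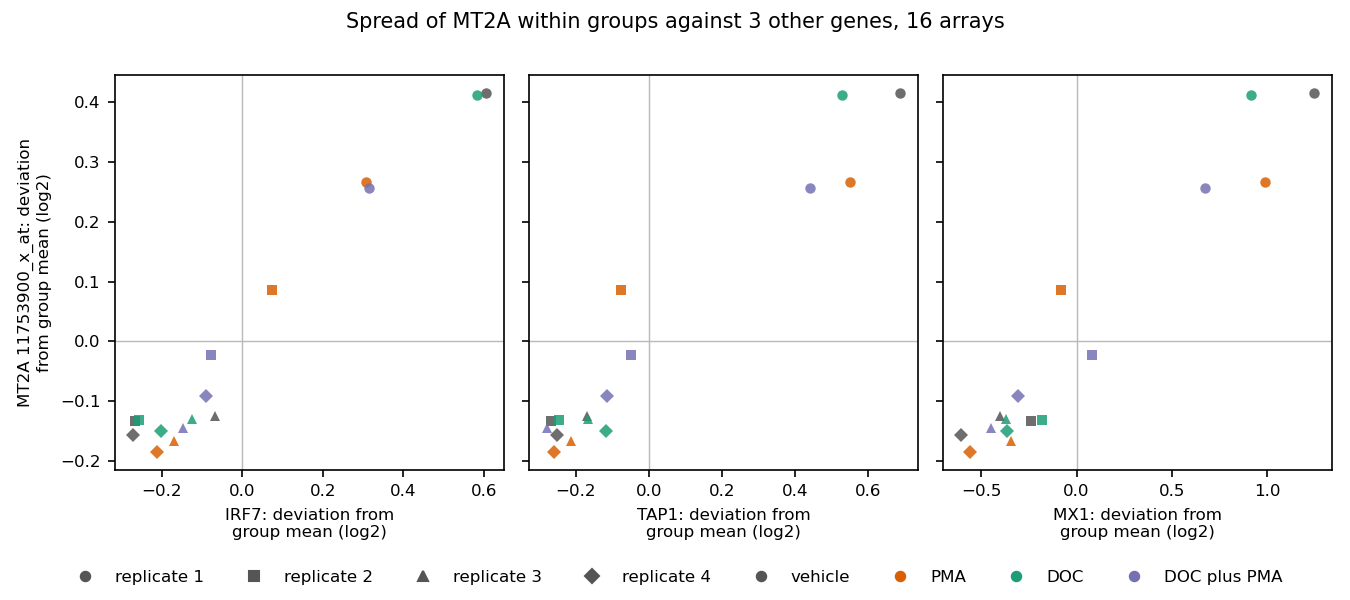
Deviation of MT2A 11753900_x_at from its group mean (vertical, log2) against the same deviation of IRF7, TAP1 and MX1 (horizontal, log2) in 16 arrays; shape gives the replicate number and colour the group. The 4 arrays numbered 1 (circles) lie at the top right of each panel, with a mean MT2A deviation of 0.34; the genes were chosen for their likeness to MT2A over these arrays.

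Over the levels of all 16 arrays, MT2A was most like TIPARP, an ADP-ribosyltransferase (r = 0.87), RHOB, a small GTPase (0.87), THBD, thrombomodulin (0.86), PDK4 (0.84) and CYP1B1, a cytochrome P450 (0.84). All 5 had positive differences of DOC plus PMA from PMA, and TIPARP, RHOB, THBD and PDK4 passed, TIPARP by 2.00. MT1X 11757581_x_at was most like TPRG1L (r = 0.90), TMX4, a thioredoxin-related membrane protein (0.90), KLF7, a Krüppel-like factor (0.89), TSC22D3, the glucocorticoid-induced leucine zipper (0.87), and GDF6, a BMP-type ligand (0.86). TSC22D3 fell with PMA by 1.18 ± 0.09 and was 1.10 ± 0.09 higher with DOC plus PMA than with PMA, and it also rose with DOC alone by 0.63 ± 0.09. These correlations are over arrays of the same 4 groups and mostly reflect the group means. Genes picked in this way tend to share the group differences of MT2A or MT1X, so those differences are no separate support.

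Of 13 other metallothionein genes and pseudogenes, 6 were on the array and 3 had a tested probe set: MT1B, MT1IP and MT3. None of the 3 passed with PMA or DOC alone. MT3, the form best known from brain, rose with both agents against vehicle by 0.33 ± 0.08 (adjusted p = 0.00507), in a comparison that called 16.3% of the 12495 tested genes higher when each was represented by its brightest probe set. Its probe set also ends in _x_at.

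Zinc transporters moved in both directions with PMA, in shares that do not set them apart from all genes, and the probe sets of 1 gene often differed. With each gene represented by its brightest probe set, among 7 tested exporters of the SLC30 family 2 rose and 3 fell, beside 16.6% of all genes higher and 28% lower. SLC30A6, which loads zinc into the secretory pathway, fell by 0.74 ± 0.09 (2 of its 4 probe sets were lower) and its partner SLC30A5 by 0.32 ± 0.09 (1 of 5). SLC30A2 rose by 0.34 ± 0.11, and SLC30A1, the plasma membrane exporter and itself an MTF1 target, by 0.25 ± 0.09 (adjusted p = 0.0399) and by 0.62 in its other probe set. SLC30A7 was not called by its brightest probe set, while another of its 3 rose by 1.00 (adjusted p = 9.37e-06), further than any other zinc transporter probe set tested. Over all 19 exporter probe sets 4 were higher and 4 lower. Among 12 tested importers of the SLC39 family SLC39A14, a zinc, iron and manganese carrier, rose by 0.30 ± 0.08, and 4 fell. SLC39A11 fell by 0.73 ± 0.10 in its brightest probe set, but the other 2 did not pass (−0.16 and −0.02). SLC39A13 fell by 0.40 ± 0.11, and both of its probe sets passed. SLC39A9 was not called by its brightest probe set and had others called in opposite directions (0.55 and −0.56). Over all 37 importer probe sets 2 were higher and 7 lower.

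Of 9 copper-handling genes 1 rose with PMA, the copper pump ATP7A by 0.26 ± 0.09, and 4 fell, beside the same 16.6% and 28% of all genes. CCS, which delivers copper to superoxide dismutase, fell by 0.48 ± 0.10, the pump ATP7B by 0.35 ± 0.11 and the chaperone ATOX1 by 0.30 ± 0.09. SLC31A2 fell by 0.31 (adjusted p = 0.0166), with 1 of its 3 probe sets called. Oxidative and metal stress genes had 6 rises and 0 falls among 12 tested, with a median of 0.22 against −0.04 over all genes. Over all 38 of their probe sets 14 were higher and 1 lower, a second probe set of NQO1 (−0.28). SRXN1, which repairs oxidised peroxiredoxins, rose by 0.94 ± 0.07 and the glutathione synthesis subunit GCLM by 0.51 ± 0.09. The haem oxygenase HMOX1 rose by 0.55 ± 0.12 (1 of its 3 probe sets was called) and the cystine transporter SLC7A11 by 0.55 ± 0.15 (2 of 3). DOC against vehicle and DOC plus PMA against PMA called 0 of the 43 tested genes in these 5 lists, with limma, and 4 and 1 genes had an unadjusted p under 0.05. Over all genes 0.104% and 0.28% were called.

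**Figure D5:**
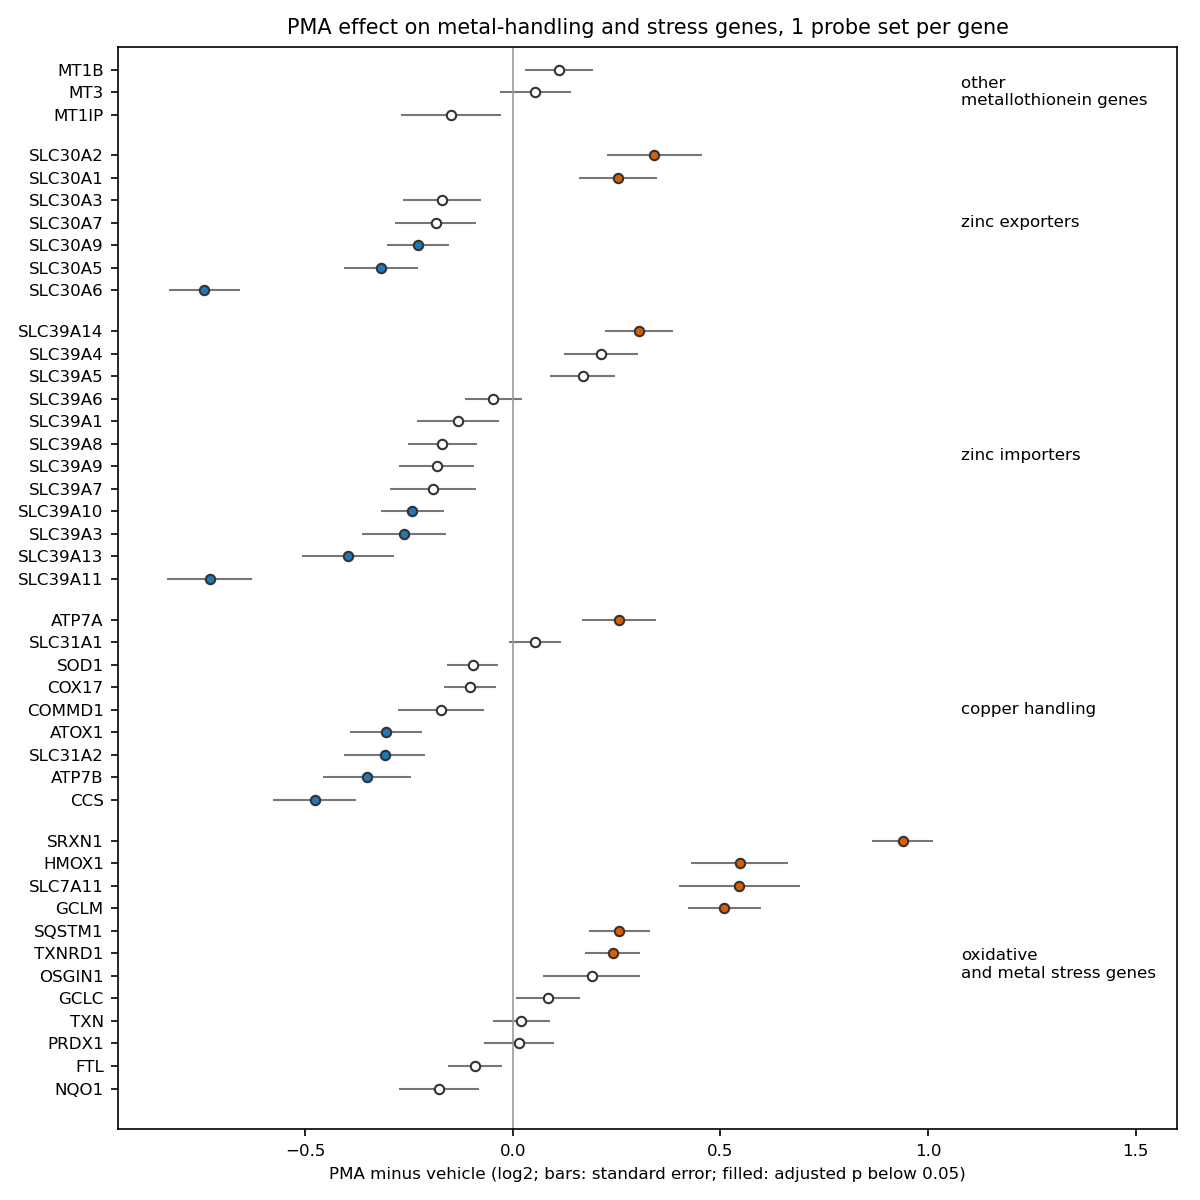
Difference of PMA from vehicle (log2, horizontal) with its standard error for the tested genes of 5 lists, the brightest probe set of each gene; orange points rose and blue points fell at an adjusted p below 0.05. Stress genes lie mostly to the right, led by SRXN1 at 0.94, and zinc transporters and copper-handling genes mostly to the left, led by SLC30A6 at −0.74.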

How the data were processed

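Biotin-labelled cRNA made from total RNA was hybridised to Affymetrix PrimeView arrays, per the labels. The deposited values are log2 signals. The submitters' processing notes name RMA and Affymetrix Expression Console, without versions. RMA subtracts background, quantile-normalises and summarises the probes of a probe set, which draws arrays to 1 distribution. Array number limits the precision.

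Gene names came from the platform's annotation, with symbols updated through RefSeq: 44988 of 49293 had 1 gene, 1832 several and 2473 none. Log2 values were fitted with limma 3.58.1 in R 4.3.3 (group means over 16 arrays, moderated variance, Benjamini-Hochberg over 30613 probe sets, threshold 0.05), and the code was tested on simulated data. Each member gene is described through its brightest tested probe set and others that differ in sign or call. For MTF1 the probe set with the clearest rise is given first and the brightest after it. In other lists up to 4 called genes with the largest change are named, and in the copper list every called gene. The members and lists were chosen with earlier results of these data known. Alternatives covered filters, scaling, weights, probe set choice, variance model, blocks and each array left out.

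The replicate numbers were taken to pair PMA with DOC plus PMA arrays, because deviations from group means correlated in all 4 same-number pairs (0.185 to 0.561). In other pairs of groups at most 2 of 4 did so above 0.1. The highest value, 0.561, was between PMA and DOC plus PMA replicates 2, both among the 3 arrays that deviated together. Correlations between arrays with unlike numbers are not given, so the pairing remains an assumption.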

Additional observations from a re-analysis of the deposited data

Results flagged for a closer look

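In a group of 4 arrays, an array is listed here where its gap to the next array is a large part of the group's range. Chance lists about 1 in 20 groups, 2.8 of the 56 looked at, and 4 were listed. The vehicle replicate 1 array read 11.31 for MT2A 11753900_x_at, against 10.77 for the next array, and the DOC replicate 1 array read 11.48 against 10.94. The vehicle replicate 1 array also read 6.53 for the other MT2A probe set, 11758729_x_at, against 6.11. The PMA replicate 2 array read 5.78 for MT1F 11721877_s_at, against 5.46.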

How the results depend on the processing

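Of 1067 alternative values for 39 named member differences, 1007 kept their direction and side of the threshold, 41 no longer passed, 19 newly passed and 0 reversed. With 1 probe set per gene the counts of calls were 2 for PMA against vehicle (8 otherwise), 3 for DOC plus PMA against vehicle (6), 2 against PMA (1), 2 against DOC (6) and 3 for the PMA average (8). With the mean of a gene's probe sets they were 3, 3 and 2 for the first 3 of these and 4 for the PMA average, where fewer features stand for the members. For DOC plus PMA against PMA the count was 2 with a 60th percentile filter, 3 with array weights, 3 with a trended robust variance and 2 without the arrays numbered 1, an alternative chosen after seeing the data, as was leaving out 3 arrays that deviated together. With the replicate block it was 2 over all arrays and 2 over these groups alone, and the DOC average gave 2. The block changed no member's call other than those given beside the result. Leaving out 1 array gave 6 to 8 calls for PMA, 5 to 8 for both agents against vehicle, 1 to 2 against PMA, 5 to 7 against DOC, 1 to 2 for the DOC average, 8 to 9 for the PMA average, and 0 for DOC and the interaction. With a common median the share of calls that were higher moved from 41.9% to 56.1% for both agents against vehicle, from 42.6% to 52.7% against DOC, and from 41.5% to 54.1% for the PMA average. The causes were not tested. Dim probe sets of MT1H, MT1M and MT1G limit what can be said of these genes. With every probe set tested, MT1H passed with both agents against vehicle (0.32 ± 0.09, adjusted p = 0.0136) and in the PMA average (0.0448), at a level below the brightness filter in all arrays.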
